A study of Homo sapiens with 5 samples.

Results

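Genes carrying RNA polymerase II (RNAPII) in wild-type (WT) RPE1 cells were set against the nascent RNA that the same genes yielded, to separate paused, productive and discordant genes. RNAPII was mapped by ChIP-seq of RPB1, its largest subunit, and nascent output was the WT BrU-seq gene body value that the authors listed for each transcription start site (TSS). Of 9944 listed TSSs, 6325 had a BrU-seq value, and 6317 of these also had RNAPII density in WT replicate 1. The genes ranked below are the 5736 of at least 5000 bp with 1 TSS each (4357 protein coding and 1276 long noncoding). Of the other members, 578 were shorter and 3 were second TSSs of a gene. RPE1 is a telomerase-immortalised human retinal pigment epithelial line, and every sample here carried the labelled iCas9 p53/puro-dKO background (an inducible Cas9, with p53 and the puromycin resistance gene knocked out) and was untreated. WT had 3 samples. The CFAP20-KO line, which lacks CFAP20, and the CFAP20/CCNC-dKO line, which lacks cyclin C as well, had 1 each. Nothing in the labels says whether a knockout is 1 clone or whether replicates came from separate cultures. The BrU-seq column is headed WT mock and is a single value per gene with no error, and neither its replicate number nor its cells are given in the sources used here.

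RNAPII initiates at a promoter and commonly halts within the first stretch of transcription, held by the factors DSIF and NELF, until the kinase P-TEFb releases it into the gene body. ChIP-seq counts polymerases that are crosslinked in place, moving or not, whereas BrU-seq isolates RNA made during a short pulse of bromouridine and so follows polymerases that elongate. A gene can therefore show much RNAPII at its start with little in its body, and both readouts are needed to tell initiation from output.

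The promoters of 7 genes on which the results turn are shown first, as examples of the classes described below. RPS14 and ANXA2 had high RNAPII in the body and high BrU-seq values, NAT10, SECISBP2 and MKNK2 were among the 8 paused genes with the most uneven RNAPII, TLL2 had a strong promoter peak with a low BrU-seq value, and ULBP3 had a high BrU-seq value with a low body density. Each line gives the 150 bases before the RefSeq start (GRCh38.p14, the build of the files), 5′ to 3′ along the gene. Capitals mark 5 motifs, searched on both strands, none of which contains another. The TATA box was searched as TATAAA. The box bound by NF-Y was searched as CCAAT. The GC box, bound by SP-family factors, was searched as GGGCGG. For AP-1, the factor made of FOS and JUN proteins, the letters were TGACTCA. For the ETS family the letters were CCGGAAG.
RPS14 (chr5:150449740-150449889, minus strand): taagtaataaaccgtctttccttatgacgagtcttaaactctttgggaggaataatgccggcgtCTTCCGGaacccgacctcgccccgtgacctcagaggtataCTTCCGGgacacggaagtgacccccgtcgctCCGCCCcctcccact
ANXA2 (chr15:60397987-60398136, minus strand): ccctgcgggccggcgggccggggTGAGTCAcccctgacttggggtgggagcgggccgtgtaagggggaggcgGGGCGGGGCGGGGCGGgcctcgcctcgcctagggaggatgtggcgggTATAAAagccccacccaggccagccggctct
NAT10 (chr11:34105479-34105628, plus strand): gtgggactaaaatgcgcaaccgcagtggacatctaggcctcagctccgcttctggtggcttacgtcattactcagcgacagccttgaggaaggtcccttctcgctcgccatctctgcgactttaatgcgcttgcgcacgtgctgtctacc
SECISBP2 (chr9:89318350-89318499, plus strand): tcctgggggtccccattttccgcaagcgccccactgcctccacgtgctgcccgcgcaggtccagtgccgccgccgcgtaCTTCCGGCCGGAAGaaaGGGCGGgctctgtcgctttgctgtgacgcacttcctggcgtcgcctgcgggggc
MKNK2 (chr19:2051245-2051394, minus strand): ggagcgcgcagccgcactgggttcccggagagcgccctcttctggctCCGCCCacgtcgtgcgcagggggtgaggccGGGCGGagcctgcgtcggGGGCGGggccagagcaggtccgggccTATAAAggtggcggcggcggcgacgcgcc
TLL2 (chr10:96513927-96514076, minus strand): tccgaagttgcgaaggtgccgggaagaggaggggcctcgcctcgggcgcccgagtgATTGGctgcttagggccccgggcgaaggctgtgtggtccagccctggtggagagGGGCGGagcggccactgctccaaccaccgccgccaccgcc
ULBP3 (chr6:150069122-150069271, minus strand): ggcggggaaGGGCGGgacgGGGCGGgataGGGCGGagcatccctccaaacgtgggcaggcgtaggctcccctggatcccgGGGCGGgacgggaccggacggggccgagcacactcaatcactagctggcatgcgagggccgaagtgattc
RPS14 and SECISBP2 each held 2 ETS matches and 1 GC box in this stretch, and NAT10 held none of the 5 motifs. ANXA2 and MKNK2 each held TATAAA together with 3 GC boxes, so these letters do not follow the classes in the examples. A match describes the letters only.

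Of the 5736 genes, 3501 had a RefSeq promoter under the same symbol and 2300 had that start within 100 bp of the listed TSS. In these the 300 bases from 250 before to 50 after the start were searched. CpG dinucleotides numbered a median of 22.5 over all 2300 genes, 30 in the paused class, 26 in the productive class and 10 in the low class, all defined below. The GC box was found in 60.8% of all, 77.9% of paused, 73.4% of productive and 48.9% of low genes. CCGGAAG was in 15.6% of all, 22.7% of paused, 24.5% of productive and 4.33% of low genes. TATAAA ran the other way, with 8.22% of all, 3.37% of paused, 6.53% of productive and 12.6% of low genes. CCAAT was in 38.8% of all, 34.3% of paused, 46.0% of productive and 36.4% of low genes and TGACTCA in 4.04%, 2.69%, 4.44% and 5.19%. Among all 27326 RefSeq promoters of this length, the GC box was in 44.6%, CCAAT in 35.7%, TATAAA in 11.9%, CCGGAAG in 10.7% and TGACTCA in 4.92%. The 359 genes with CCGGAAG had a median BrU-seq value of 2.25, against 0.632 in the 1941 without it. In this order, promoter densities were 1.54 and 0.989 and body densities 0.443 and 0.403. BrU-seq medians with and without the GC box were 1.13 and 0.336, and with and without CCAAT 0.994 and 0.742. They were 0.242 and 0.901 for TATAAA, and 0.315 and 0.870 for TGACTCA.

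RNAPII density was the authors' spike-in normalized coverage, averaged from -200 to 500 bp for the promoter and from 2000 to 5000 bp for the body. The 3526 TSSs that had density and no BrU-seq value were taken as the level of background, a median of 0.304 at the promoter (quartiles 0.237 and 0.370) and 0.314 in the body (0.273 and 0.356). Why a value is missing is not given in the sources used here, and 4 members had a listed value of 0. The 5736 genes had medians of 0.718 at the promoter and 0.397 in the body. These are 2.36 and 1.26 times the background medians, so the body of a typical gene stood little above genes without a BrU-seq value. A gene at the median held the equivalent of 81.9 fragments at its promoter and 191.9 in its body, with counting errors of 11.1% and 7.22%. These errors are of all fragments, background included. The signal above background is a smaller part of the density, above all in the body, and its relative error is larger. Body density was over 1.25 times the local background, the median of the 15 nearest TSSs without a BrU-seq value, in 48.0% of genes.

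Across all ranked genes, BrU-seq output followed the promoter more closely than the body. Over the 5736 genes the Spearman correlation of the BrU-seq value was 0.719 with promoter density, 0.620 with body density and 0.585 with the log2 promoter to body ratio. These are descriptions across genes, which share 1 ChIP library and 1 BrU-seq column and are not replicates. With genes cut into 10 equal groups by BrU-seq value, from the lowest to the highest group median promoter density went from 0.317 to 1.83, which is 1.05 to 6.03 times the background. Median body density went only from 0.331 to 0.574, or 1.06 to 1.83 times. The ratio did not keep growing with output, since its median was -0.01 in group 1, 0.80 in group 5, 1.63 in group 8 and 1.57 in group 10. Body ranks accounted for 38.4% of the variance of BrU-seq ranks, promoter ranks for 51.7%, both for 57.4%, and both with gene length for 67.9%.

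**Figure D1:**
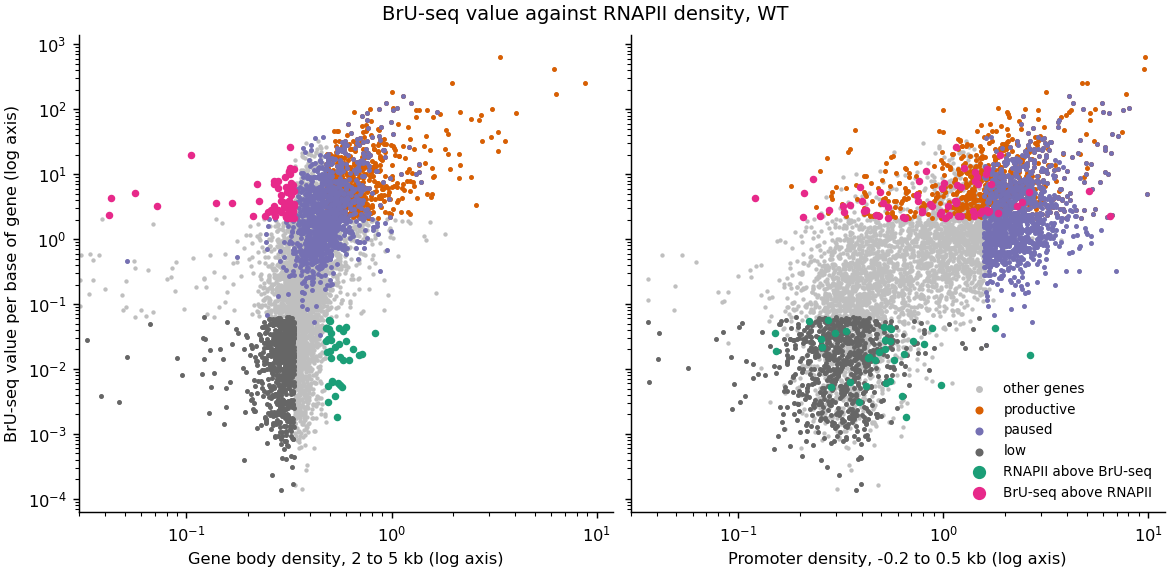
BrU-seq value per base against gene body density (left) and promoter density (right) in WT, 1 point per gene on log axes, coloured by class; paused genes that are also productive are drawn as paused, and 58 genes at 0 or below the plotted range are left out. Body densities crowd around 0.3 to 0.5 over several orders of magnitude of BrU-seq values, while promoter densities spread along with them.

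Gene length separated the 2 readouts. The BrU-seq value had a Spearman correlation of -0.312 with gene length, against -0.056 for body density and 0.050 for promoter density. The 1434 genes in the top 25.0% of promoter density were split into 4 length classes, with limits that divide all 5736 genes evenly. The shortest class (287 genes, median 8551 bp) and the longest (379 genes, median 93630 bp) had nearly equal promoter densities, 2.20 and 2.08, and body densities of 0.559 and 0.477. Their median BrU-seq values were 11.1 (quartiles 5.44 and 25.7) and 0.956 (0.551 and 1.52), an 11.6-fold difference for a 10.9-fold difference in length. The 2 middle classes (376 and 392 genes) had BrU-seq medians of 4.11 and 2.10.

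The scale of the deposited column bears on this. For all 6325 values, the value times the gene length was a whole multiple of 30, to within 0.02 of 1 such step, so each value is 30 times a whole number divided by the length. That whole number, called units per gene here, summed to 12542351, and what 1 unit stands for is not given in the sources used here. Median units per gene among the genes with top promoters were 3298 in the shortest, and 2548 and 2772 in the middle classes. The shortest and the longest class differed by a ratio of only 1.01. Across these 1434 genes the correlation with length was 0.02 for units and -0.70 for the value per base. Across the productive genes defined below it was 0.35 and -0.48. Productive genes must pass a lower limit of the value per base, which in units rises with length. Their correlation for units is thus not free of the rule. With units in place of the value per base, the correlations over all 5736 genes were 0.774 with the promoter, 0.627 with the body and 0.649 with the ratio. Units had a correlation of 0.370 with summed exon length over the 5668 genes with an annotation, and of 0.116 among the genes with top promoters. At like promoter density, median units were thus level across length classes and the value per base was lower about in proportion to length. What part the counting of units has in this was not tested.

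**Figure D2:**
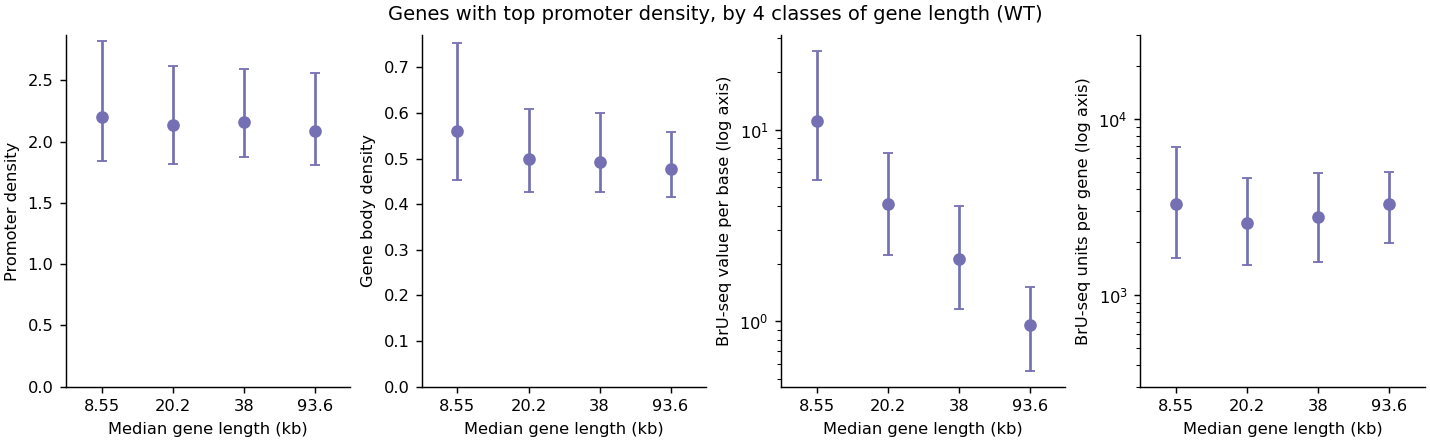
Genes in the top 25.0% of promoter density, split into 4 classes of gene length (x axis, median length in kb); points are medians and bars the quartiles over genes, not an error over replicates. Promoter density and units per gene stay level while the BrU-seq value per base drops from 11.1 to 0.956.

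Genes were classed by the top 25.0% and the bottom 25.0% of each measure, called top and bottom here. Productive genes were top for both body density and BrU-seq value, and low genes bottom for both. Paused genes were top for promoter density and for the promoter to body ratio, with no use of BrU-seq. Top body density began at 0.481, with 0.480 just outside, and top BrU-seq at 2.09, with 2.08 just outside. There were 842 productive genes (14.7%), 1144 paused genes (19.9%) and 713 low genes (12.4%). 34 genes (0.593%) had top body density with bottom BrU-seq values, 67 (1.17%) the reverse, and 5 (0.0872%) a top promoter with bottom BrU-seq values.

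Productive genes had median values of 1.92 at the promoter, 0.613 in the body and 6.19 for BrU-seq. Their median length was 17035 bp, against 27080 bp for all genes. The class is chosen on a value that is divided by length, so its length is not free of the rule. The highest BrU-seq values among genes free of a listed TSS within 10 kb began with PLK2, a polo-like kinase, at 411, where RNAPII density was 9.48 at the promoter and 6.17 in the body. RPS14, a protein of the small ribosomal subunit, had 184 with 3.17 and 1.00. PPIF (mitochondrial cyclophilin), PPIA (cyclophilin A) and MCL1 (an anti-apoptotic BCL2 relative) had BrU-seq values of 162, 124 and 123 with body densities of 1.14, 0.944 and 1.24.

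Other genes with high body densities were CCND1, which encodes cyclin D1, at 4.06, the transcriptional coactivator gene ZMIZ1 at 3.56, FLNA, which encodes the actin crosslinker filamin A, at 3.30, and the annexin gene ANXA2 at 3.30. Their BrU-seq values were 89.2, 33.0, 22.7 and 44.6. FLNA had less RNAPII at its promoter, 1.90, than in its body. ZMIZ1, of 247485 bp, had the most units of any gene, 272371, though its value per base ranked below that of the short PPIA. EEF1A1, the translation elongation factor gene, had the highest BrU-seq value of all (642); it lies outside the naming rule and was named after its values were seen. ZFP36L1, an mRNA decay factor gene on the immediate early list, had the highest body density (8.82).

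Paused genes were not silent. Their median densities were 2.21 at the promoter and 0.469 in the body, and 572 of the 1144 (50.0%) were top for BrU-seq (against 25.0% of all genes) while 4 were bottom. Of all 1434 genes with top promoters, from which the class is drawn, 805 were top for BrU-seq and 5 bottom. The class overlapped the productive one in 336 genes. The 808 genes that were paused only had a median BrU-seq value of 1.32, a length of 41415 bp and 2047 units per gene. The 336 that were both had 6.04, 19887 bp and 4191 units, and the 506 that were productive only had 6.44, 15026 bp and 4409 units. This split uses the value per base, which is divided by length, so the lengths are not free of the rule. Within the paused class the correlation with length was -0.71 for the value per base and 0.07 for units. The class was 96.6% protein coding, against 91.9% of the productive class and 76.0% of all genes. Of its members 161 (14.1%) had the start of another coding gene within 5 kb, against 15.2% of the productive class and 10.5% of all genes.

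The most uneven gene was GTF2IRD2B, at 2.94 at the promoter and 0.051 in the body, where the body lay below its local background of 0.309. It has near-identical copies, so its body value is uncertain. NAT10, an RNA acetyltransferase gene, had 6.47 at the promoter and 0.324 in the body, a log2 ratio of 4.16, and a BrU-seq value of 2.28, among the top ones. ABHD6, a lipid hydrolase gene, had 6.92 and 0.411 with a value of 0.319, at percentile 43.2 of BrU-seq values. C17orf53 had 5.15 and 0.335 with 5.45. MKNK2, a kinase that acts on the cap-binding factor eIF4E, had the highest promoter density of the class, 9.87, with 0.704 in the body and 4.92 for BrU-seq, and was also productive. NDRG1 had 4.97 and 0.350 with 1.31, and SECISBP2, needed for selenoprotein synthesis, 6.64 and 0.527 with 2.35. Promoter densities of 4.97 to 6.92 thus went with BrU-seq values from 0.319 to 5.45. POLR2J3, the remaining gene named here, is described with its copies below.

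**Figure D3:**
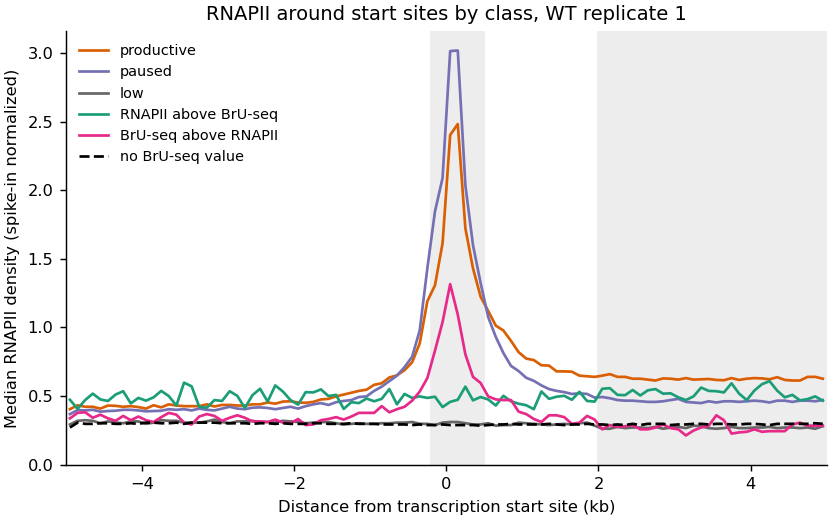
Median RNAPII density in WT replicate 1 by distance from the TSS, in 100-bp steps, for 5 classes and for TSSs with no BrU-seq value (dashed); grey bands are the promoter and body windows. The paused and productive medians peak at 3.02 and 2.48 about 150 bp downstream, and the body level is higher in the productive class; genes with RNAPII above BrU-seq have no peak at the start.

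The 34 genes with top body density and bottom BrU-seq values mostly lacked a promoter peak. Their medians were 0.515 at the promoter and 0.530 in the body, and only 2 had a top promoter. Their median density from -5000 to -2000 bp, upstream of the start, was 0.503, slightly below that of the body and against 0.369 over all genes. Examples with the largest gap in rank were the pancreatic lipase relative PNLIPRP3 (body 0.545, BrU-seq 0.002), the complement gene C9 (0.563 and 0.006), LMNTD1 (0.533 and 0.004) and the noncoding RP11-33A14.1, RP11-508N22.9, RP11-170M17.1 and RP11-298H24.1 (0.551 to 0.718 and 0.005 to 0.017). Local background was 0.480 at PNLIPRP3, 0.476 at LMNTD1 and 0.509 at RP11-298H24.1, not far below their bodies. It was 0.355 to 0.389 at the other 3 noncoding genes and 0.337 at C9, whose upstream density (1.38) exceeded its body. PNLIPRP3, RP11-508N22.9, RP11-170M17.1 and RP11-298H24.1 lie on chromosome 10 and LMNTD1 on chromosome 12. KCNMB2 overlaps the body window of RP11-33A14.1, and PLD5P1 that of RP11-508N22.9. PNLIPRP3 had 3 units and C9 had 15, and 5 of the 34 genes had fewer than 10. Another coding gene covered part of the body window in 7 of them (20.6%, against 12.2% overall).

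These genes were unevenly spread over the genome. Chromosome 10 held 14 of the 34 (41.2%) but 253 of all 5736 (4.41%), and chromosome 12 held 5. In the 20-Mb blocks from 60 to 140 Mb of chromosome 10, 82.6% to 85.7% of genes were top for body density, whereas 29.2% to 39.1% were top for BrU-seq. On chromosomes other than 10 and 12 these shares were 22.8% and 25.0%. The TSSs without a BrU-seq value in those blocks had flank and body densities of 0.429 to 0.520, against 0.316 on the other chromosomes. From 0 to 20 Mb of the same chromosome their level was 0.227, and 7.69% of genes were top for body density. Chromosome 12 had 60.5% and 74.1% of its genes at top body density from 0 to 20 and from 20 to 40 Mb. After division by the local background, an alternative chosen after seeing the data, 33 genes met the same rule, of which 3 were on chromosome 10 and 0 on chromosome 12, and 13 of the original 34 were among them. RPE1 is known to carry an extra copy of part of the long arm of chromosome 10, whose part in these densities was not tested.

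The 67 genes with top BrU-seq values and bottom body density had median densities of 1.01 at the promoter and 0.308 in the body, and a BrU-seq value of 3.36. By the rule that drew them, their bodies lay at the level of genes without a BrU-seq value. A top promoter was found in 13 (19.4%) and a top promoter to body ratio in 36 (53.7%), each against 25.0% of all genes. The low body that defines the class also raises this ratio. None was on chromosome 10. The median length was 12119 bp, in a class that is also chosen on the value per base. In 8 of the 67 the body was under 50% of the local background, which held for 96 of all 5736 genes. Of these 8, POLR2J3 (body 0.105, BrU-seq 19.7), CH507-42P11.8 (0.025 and 8.55) and FAM86B2 (0.056 and 5.21) belong to families or duplicated segments with near-identical copies, where reads of 1 copy can be lost or placed on another. NSUN5 has such copies too, with a body of 0.267 against a local background of 0.309 and a BrU-seq value of 7.90. These values are uncertain. MRPL23, a mitochondrial ribosomal protein gene, had almost no coverage at either window (0.121 and 0.043, local background 0.293) and a BrU-seq value of 4.37. Its promoter and body were at 0 and 0 in the CFAP20-KO library and at 0 and 0.067 in the double knockout. Its RNAPII values are thus uncertain too.

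Others were less depleted in the body. ULBP3, a ligand of the NKG2D receptor, had 1.47 at the promoter, 0.221 in the body, where the local background was 0.340, and 7.03 for BrU-seq over 5946 bp. DOLPP1, a dolichol pyrophosphate phosphatase gene, had 1.70, 0.269 and 7.16. ZNF256, a zinc finger gene, had 0.762, 0.281 and 7.90. MSN, which encodes moesin, was named after its values were seen: over 141213 bp it had 12197 units, the most in this class, with 0.330 at the listed start and 0.264 in the body. The listed start then carries no RNAPII above background, so the start that gave rise to those units was not located here.

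A top promoter with a bottom BrU-seq value was found in 5 of the 1434 genes with top promoters, and with units per gene in place of the value per base only 1 of the 5 remained. CTD-2631K10.1, a noncoding gene, had a promoter density of 2.71 and 39 units, DPH6-AS1 had 1.95 and 342 units, and SSPO, a transcribed pseudogene outside the naming rule and named after its values were seen, had 1.79 and 83 units. These 3 had the start of a coding gene within 5 kb (TNPO1, DPH6 and ZNF467), so RNAPII at the window cannot be told apart from that of the neighbour. TLL2, a metalloprotease gene of the tolloid family, had 2.64 at the promoter, 0.695 in the body and 83 units over 149306 bp, on the block of chromosome 10 with high background (local background 0.529). DNAH2, an axonemal dynein gene, had 1.61 at the promoter and 0.274 in the body with 91 units. TLL2 and DNAH2 had no other coding start within 5 kb.

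At the far end of gene length, the longest genes with top BrU-seq values were TNS3 (tensin 3, 306991 bp), RUNX1 (a transcription factor, 261544 bp), ZMIZ1 and ABCC1 (a drug exporter, 193486 bp). Their units were 48610, 19918, 272371 and 23966, and their values per base 4.75, 2.29, 33.0 and 3.72. Body density was 0.916 in TNS3, 0.551 in RUNX1 and 0.520 in ABCC1, and 3.56 in ZMIZ1.

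Gene lists are given by their counts in each class, to be read against 14.7% productive, 19.9% paused and 12.4% low among all genes. Lists differ in length. The median was 6558 bp for cytosolic ribosomal protein genes, 7174.5 bp for immediate early genes and 14515.5 bp for antisense RNA genes. It was 34405 bp for pause release and elongation factor genes, against 27080 bp for all genes. BrU-seq medians and productive counts of lists rest on the value per base and are not free of length. Cytosolic ribosomal protein genes had 12 of 13 members productive and 2 paused, with median BrU-seq 76.9 and a median log2 ratio of 1.51, against 0.78 for all genes. RPL35A, RPL26 and RPS24 had BrU-seq values of 106, 103 and 98.8 and body densities of 1.02, 0.789 and 1.32. Mitochondrial ribosomal protein genes had 3 of 14 productive, 8 paused and 2 with BrU-seq above RNAPII. These 2 were MRPS25 and MRPL23, the latter almost without coverage. Their medians were 3.41 for BrU-seq, 0.392 for the body, which is the level of all genes, and 1.87 for the log2 ratio. MRPL37, MRPS30 and MRPS25 had BrU-seq values of 11.2, 10.3 and 10.2 with bodies of 0.384, 0.361 and 0.320.

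Immediate early genes, whose transcription responds within minutes to serum, had 7 of 10 members productive (against 14.7% of all genes) and 2 paused (against 19.9%), with a median BrU-seq value of 69.6 and a body density of 1.22. DUSP5, a phosphatase of ERK, had a promoter density of 6.00, a body density of 1.67 and a BrU-seq value of 91.9. In the heat shock and unfolded protein response list, 2 of 7 members were productive and 5 paused. HSP90AA1, a chaperone gene, had 6.62 and 1.02 with a BrU-seq value of 41.6, BAG3, a co-chaperone gene, 5.25 and 1.37 with 14.5, and SESN2, a stress-induced sestrin gene, 2.40 and 0.398 with 5.42. Pause release and elongation factor genes were 3 of 6 productive and 4 paused. Among them CCNT1, the cyclin of P-TEFb, had a log2 ratio of 2.10, while SUPT5H, a DSIF subunit, had -0.51. The highest density of SUPT5H between -500 and 1000 bp lay at 1000 bp, outside the promoter window.

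Splicing factor genes were 11 of 14 productive and 8 paused, against 14.7% and 19.9% of all genes. SRSF3, SRSF7 and SRSF6, serine and arginine rich splicing regulators, had promoter densities of 7.56, 6.43 and 7.08, log2 ratios of 2.84, 3.02 and 2.98, and BrU-seq values of 97.6, 87.0 and 39.3. Proteasome subunit genes were 8 of 9 productive and 4 paused, aminoacyl-tRNA synthetase genes 3 of 6 and 5, and respiratory chain genes 9 of 22 and 5 (22.7% paused, near the share of all genes). ATP5G2, an ATP synthase subunit gene, had 0.344 at the promoter, 0.864 in the body and 22.1 for BrU-seq. Its highest density near the listed start lay 980 bp downstream, outside the promoter window. Interferon response genes were 6 of 11 productive and 3 paused, with TMEM173, which encodes STING, at 1.47, 0.368 and 11.4.

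Extracellular matrix and adhesion genes were 5 of 10 productive and 1 paused, and had a median log2 ratio of 0.67, below the 0.78 of all genes. ITGA5, the fibronectin receptor subunit, had 2.29 and 1.08 with a BrU-seq value of 18.8, and LOX, the collagen crosslinking lysyl oxidase, 2.52 and 0.805 with 9.55. Of the actin, tubulin and contractile genes, 1 of 3 was productive (FLNA) and 0 were paused, and the only glycolysis gene measured, PGAM1, was productive at 75.8. Homeobox and developmental transcription factor genes were 7 of 20 productive, 3 paused and 4 low, against 14.7%, 19.9% and 12.4% of all genes. SOX9 had 4.12 and 2.16 with a BrU-seq value of 89.9, and SOX4 had more RNAPII in its body (1.17) than at its listed promoter (0.270).

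Zinc finger genes named ZNF, most of which encode KRAB repressors, were 29 of 186 productive (15.6%, near the 14.7% of all genes), 55 paused (29.6%, against 19.9%) and 10 low (5.38%, against 12.4%), and 5 had BrU-seq above RNAPII. Antisense RNA genes had 7 of 84 productive (8.33%), 8 paused and 5 low, and a median log2 ratio of 0.13. DLG1-AS1 had a promoter density of 5.64 with a BrU-seq value of 29.4. ChIP-seq carries no strand, and whether BrU-seq values were counted by strand is not stated in the sources used, and antisense and sense genes cannot be told apart in them. These counts are descriptions of lists and carry no test.

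**Figure D4:**
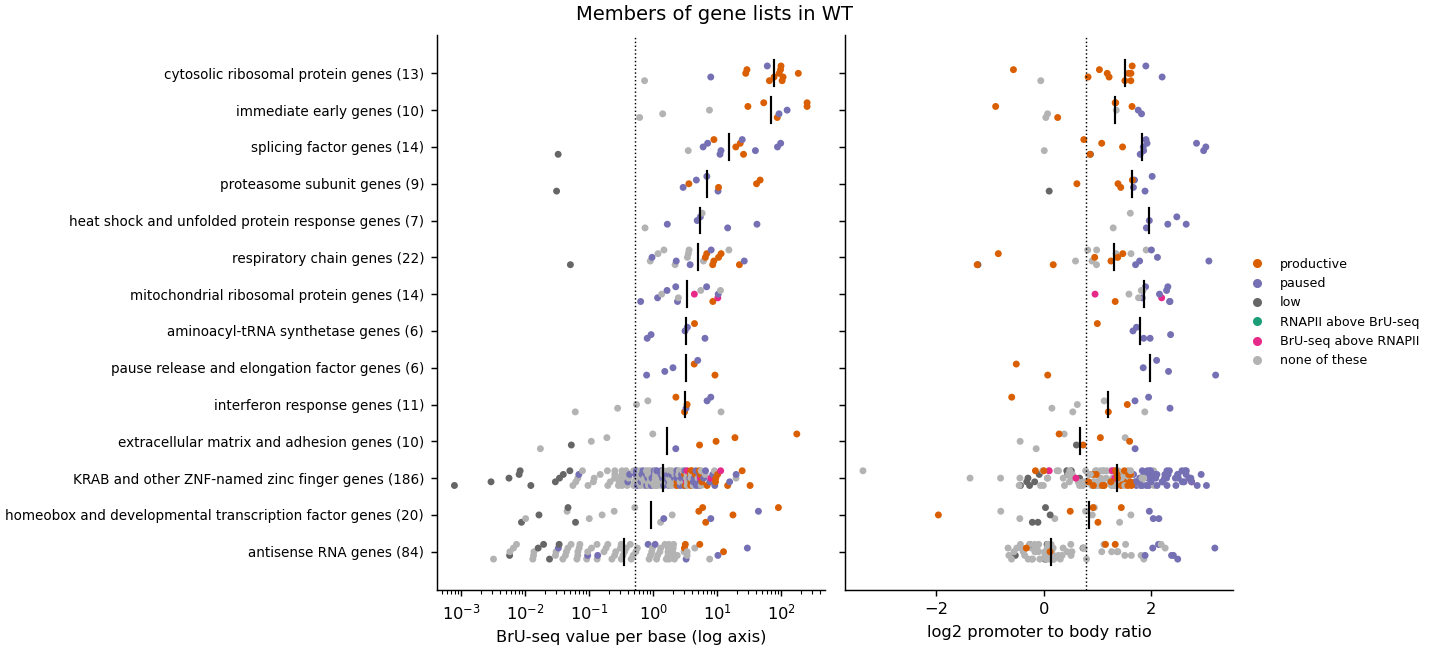
Members of 14 gene lists with at least 6 measured genes (number in brackets), by BrU-seq value on a log axis (left) and log2 promoter to body ratio (right); bars are list medians, dotted lines the medians of all 5736 genes, and genes both paused and productive are drawn as paused. Ribosomal protein and immediate early genes have the highest BrU-seq medians, 76.9 and 69.6, and antisense RNA genes the lowest, 0.345. The value per base is divided by gene length, which differs between lists.

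Genes under 5000 bp had no usable body window and are given by promoter and BrU-seq value only. The growth-factor responsive gene CYR61 had the highest promoter density among the short list members, 13.6, and the highest BrU-seq value of them, 1187. RPL19 had 2.89 and 338, DNAJB1, a heat shock co-chaperone gene, 4.95 and 225, and the histone genes HIST1H4H and HIST1H3E 4.22 and 112, and 1.42 and 81.4. FOS had a promoter density of 2.60 with a BrU-seq value of only 26.1. No small nucleolar RNA host gene was among the listed TSSs.

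The labelled cell type was checked against marker genes. Of the retinal pigment epithelium markers, OTX2 had 1.67 at the promoter, 0.694 in the body and 10.0 for BrU-seq and was productive, MITF had a BrU-seq value of 1.40, and RLBP1 and LRAT had 0.235 and 0.038 with bodies of 0.253 and 0.367, at the background. RLBP1 and LRAT, which serve the visual cycle of the differentiated tissue, thus stood at background, and 2 further listed markers had no BrU-seq value. The blood marker SPI1 had 0.011, the hepatocyte markers SERPINA1 and ALB 0.101 and 0.019, and the neuron marker SNAP25 0.375 with a promoter density of 1.05.

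Replicates 2 and 3 of WT were read only inside windows of 100 kb on either side of replication origins, in 200-bp bins, which held 1341 of the 5736 TSSs. In replicates 1, 2 and 3 the Spearman correlation of BrU-seq with body density was 0.609, 0.391 and 0.524 (0.508 ± 0.110, SD, n = 3). With promoter density it was 0.673, 0.611 and 0.649 (0.644 ± 0.031). The body correlation was the lower of the pair in 3 of 3 libraries, with differences (body minus promoter) of -0.063, -0.220 and -0.124 and a mean of -0.136 ± 0.079. The two-sided exact sign-flip permutation test gave p = 0.25, the smallest that 3 libraries allow, so the difference could not pass a threshold of 0.05.

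Classes drawn in replicate 1 were then read in the other 2 libraries, relative to the median of all 1341 TSSs. The log2 ratio of the 355 paused TSSs exceeded it by 0.82, 0.76 and 0.86 in replicates 1, 2 and 3, and that of the 258 productive TSSs by 0.27, 0.31 and 0.37. The 85 low TSSs were below it, at -1.01, -0.78 and -1.19. For body density, productive TSSs were at 1.52, 1.39 and 1.69 times the median, and paused ones at 1.12, 1.06 and 1.22 times. The 15 TSSs with BrU-seq above RNAPII had 0.754, 0.806 and 0.722 times the median body density. The 9 with RNAPII above BrU-seq had 1.15, 0.991 and 1.17 times, so replicate 2 did not show their higher body density.

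**Figure D5:**
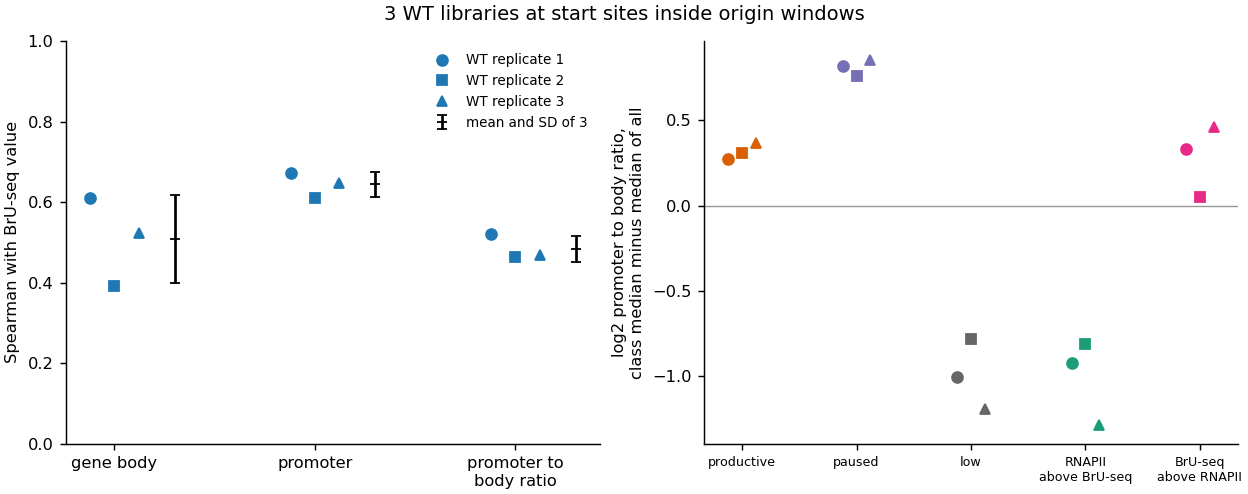
Left, Spearman correlation of the BrU-seq value with RNAPII in each WT library at 1341 TSSs, with the mean and SD of 3 libraries; right, median log2 promoter to body ratio of each class in each library, minus the median of all TSSs. The paused class, drawn in replicate 1, is at 0.76 and 0.86 in replicates 2 and 3.

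Against the same WT BrU-seq values, the libraries of the other genotypes had lower correlations over 5725 genes. The correlation with body density was 0.620 for the WT library, 0.513 for that of CFAP20-KO cells and 0.476 for the double knockout, and with promoter density 0.719, 0.650 and 0.643. The order of promoter over body held in each. Over all genes the median densities in this order were 0.720, 0.760 and 0.618 at the promoter and 0.397, 0.419 and 0.412 in the body. Those of the paused class, which was drawn on the WT values, were 2.21, 2.26 and 1.58 at the promoter and 0.469, 0.524 and 0.491 in the body. The productive class, drawn on WT as well, had 1.92, 1.96 and 1.37, and 0.613, 0.705 and 0.623. With 1 library per genotype no test was possible. The sequencing depth of the 3 libraries was not compared, and its part in the lower correlations was not tested. The double knockout library also had less chromatin (22 against 28 µg) and less spike-in (32.6 against 40 ng) than the others. The part of these amounts in its densities was not tested. The labels name an RPB1 antibody of another supplier for the knockouts, so antibody and genotype cannot be told apart. They also give the WT RPB1 antibody the same catalogue number as the antibody against the Drosophila spike-in, so which RPB1 antibody was used in WT is not settled by them.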

How the data were processed

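RNAPII occupancy came from ChIP-seq with a Drosophila spike-in (40 ng to 28 µg of chromatin in WT). Per the file headers, the authors deposited density in 10-bp bins over 5 kb on either side of each TSS, a spike-in normalized coverage score per the file names. It was recorded as a score because a few values were rounding residues below 0, which were set to 0. All values were whole multiples of 0.0444 within 0.02 steps, and isolated fragments covered 140 bp, from which equivalent fragments were derived. The deposited BrU-seq signal is the authors' value per gene, and gene lengths are the authors', listed in bp. Around origins, the deposited density had 200-bp bins and a normalization not given in the sources used here. The submitters' processing notes name HOMER 4.8.2, BWA 0.7.17 and STAR 2.7.7a, with SAMtools 1.11, Trim Galore 0.6.5, R 4.0.5 and FastQC 0.11.9. The role of each tool was not given, and the build was hg38. 2 columns of another assay were not used.

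TSSs were joined by identifier and compared with GENCODE 44 (5600 of 5736 within 1 kb of a start of their gene, 68 farther and 68 with an identifier absent from that release). To form log2 ratios, 0.0405 (10% of the median over all promoters) was added to both densities as a pseudocount. Correlations are Spearman's, and classes are cut at the top and bottom 25.0% by rank. They were tested on simulated data. Genes were named by rule: the 6 highest BrU-seq values and body densities, the 8 most uneven paused genes, the 8 largest rank gaps each way, the 6 highest promoters without output (4 qualified), the 4 longest genes with top BrU-seq values, and up to 4 members per list with the highest BrU-seq values. Except for the lists, these left out genes with another listed TSS within 10 kb or a start over 1 kb from the annotation. The members and lists were chosen with earlier results of these data known. Python 3.11.15, pandas 2.3.3 and numpy 2.4.6 were used. Counting errors cover sampling of fragments only. Results for 2 genes that the naming rule picked are not reported here.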

Additional observations from a re-analysis of the deposited data

How the results depend on the processing

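Of 103 alternative values, 85 stayed within the spread between WT libraries (correlations) or within 1.5 times the count (classes), and 18 moved further. This spread, the SD of 3 libraries at 1341 TSSs, was 0.110 for the body correlation, 0.031 for the promoter and 0.033 for the ratio. The body correlation thus had a wider limit than the others. No correlation, and no difference between 2 correlations, changed sign; counts cannot. Limits: body density is close to background, the BrU-seq column has no replicates, and the classes rest on 1 library. The correlation with body density ran from 0.548 to 0.642. The correlation with promoter density was 0.752 in genes of at least 20000 bp, 0.584 without the lowest 25.0% of BrU-seq values, and 0.774 with units per gene. The correlation with the ratio was 0.488 after background subtraction, 0.649 in genes of at least 20000 bp, 0.550 with no length limit, 0.412 without the lowest 25.0% and 0.649 with units per gene. After background subtraction 847 genes were paused, which are 74.0% of the 1144 in the main class. Counts of the other classes did not change under that setting. In genes of at least 20000 bp, a set of 3485, there were 503 productive, 692 paused, 436 low, 43 with BrU-seq above RNAPII and 2 promoters without output. With cuts at 20% in place of 25.0%, which hold fewer genes by construction, there were 17 with RNAPII above BrU-seq, 30 with BrU-seq above RNAPII and 2 promoters without output. With units per gene, 1 promoter was without output, and 23 of 35 genes with RNAPII above BrU-seq and 32 of 58 with BrU-seq above RNAPII were shared with the main classes. Without chromosomes 10 and 12, 19 genes had RNAPII above BrU-seq. Division by local background, units per gene and the omission of these chromosomes were chosen after seeing the data. For the other moved values the cause was not tested. Leaving out each WT replicate, the mean of body minus promoter correlation ran from -0.172 to -0.094, and with a body window of 1000 to 4000 bp it was -0.091. No paired analysis was possible because each knockout has 1 library, which shares only a replicate number with WT, and no test between genotypes was made.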

Other observations

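Beyond the classes, the shape of RNAPII along the body window varied little with length among genes with top promoters. From 2000 to 3000 bp the median density was 0.559 in the shortest and 0.487 in the longest length class, and from 4000 to 5000 bp it was 0.567 and 0.461. Upstream of the start, from -1500 to -300 bp, median density was 0.626 in productive and 0.621 in paused genes, against 0.322 in low genes and 0.430 overall. The position of the highest density was at a median of 80 bp downstream in paused genes (quartiles 0 and 150) and 90 bp in productive genes (22.5 and 210).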
